A study of Homo sapiens with 18 samples.

Results

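The 5 H/ACA box small nucleolar RNAs (snoRNAs) that lie in introns of the translation factor genes EIF4A1 and EIF4A2 were followed in vesicles and cells of HEK293T, a human embryonic kidney line. U67 and ACA48 lie in EIF4A1, and ACA4, E3 and HBI-61 lie in EIF4A2. They were chosen by host gene and snoRNA class, not by their values, though earlier results of these data were known. They are 5 of 2462 features in the table and 5 of its 108 H/ACA box snoRNAs. Small RNA was sequenced in 6 groups of 3 libraries: extracellular vesicles from ATG7-/- clone F2, ATG12-/- clone D9 and wild-type cultures, and the ATG7-/-, ATG12-/- and wild-type cells. All 6 groups, the controls included, were starved of serum for 24 h. ATG7 and ATG12 belong to the machinery that joins LC3 to membrane lipids. Each knockout is 1 clone, so clone and genotype cannot be told apart. The labels call the libraries of a group biological replicates and say no more of their cultures, so p-values measure the spread between these libraries, which may be technical.

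H/ACA box snoRNAs fold into a pair of stem-loops, each followed by a short box, the H box between the stems and an ACA triplet close to the 3′ end. With dyskerin and its partner proteins they guide the change of chosen uridines of ribosomal and spliceosomal RNA to pseudouridine in the nucleus. U67 is known as a guide for the RNA of the small ribosomal subunit and HBI-61 for that of the large subunit. Human H/ACA box snoRNAs are mostly cut from spliced introns of host genes. EIF4A1 and EIF4A2 encode the closely related DEAD-box RNA helicases eIF4A1 and eIF4A2, which act with the cap-binding complex to unwind messenger RNA at the start of translation.

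The sequences of the members are given because the rule chose them by class and place. They are the annotated RNAs of GENCODE release 29 on GRCh38, read 5′ to 3′ with T for U. Capitals mark a candidate H box (the letters ANANNA at the end of the first predicted stem) and the ACA, or ATA in HBI-61, within the last 6 bases.
U67: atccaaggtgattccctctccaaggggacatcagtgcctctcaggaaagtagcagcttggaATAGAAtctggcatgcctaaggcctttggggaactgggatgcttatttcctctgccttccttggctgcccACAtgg
ACA48: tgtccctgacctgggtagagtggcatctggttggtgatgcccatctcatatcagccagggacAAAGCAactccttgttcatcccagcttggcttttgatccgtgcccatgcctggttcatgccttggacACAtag
ACA4: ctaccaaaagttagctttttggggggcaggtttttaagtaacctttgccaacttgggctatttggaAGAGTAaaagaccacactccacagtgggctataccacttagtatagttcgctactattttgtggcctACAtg
E3: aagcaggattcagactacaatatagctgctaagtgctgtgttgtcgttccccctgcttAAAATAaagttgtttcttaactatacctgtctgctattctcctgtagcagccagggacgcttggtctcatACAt
HBI-61: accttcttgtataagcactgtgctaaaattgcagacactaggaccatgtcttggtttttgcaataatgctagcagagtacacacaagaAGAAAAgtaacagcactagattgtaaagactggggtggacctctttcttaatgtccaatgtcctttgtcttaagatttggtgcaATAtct
No pair of members was near-identical: over their global alignments they shared between 46.8% (ACA4 and E3) and 53.1% (U67 and ACA48) of columns. HBI-61 is the longest at 178 bases, a length that 7 of 103 distinct H/ACA box sequences in the table reached, and the others span 132 bases (E3) to 138 bases (ACA4). On the strand of the RNA itself, ACA stood in the last 6 bases of 92.2% of the 103 H/ACA box sequences and of 3.9% of 231 C/D box sequences. ATA stood there in 18.4% of H/ACA box sequences and in none (0.0%) of the C/D box ones. ANANNA anywhere was common in both classes, at 98.1% and 82.7%, so its letters alone mark no box. The capitals of each member do not overlap.

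In EIF4A1, on the + strand of GRCh38, ACA48 lies at chr17:7574713-7574847 in intron 3 and U67 at chr17:7577955-7578091 in intron 9. The readthrough gene SENP3-EIF4A1 and the processed transcript AC016876.2 cover both on the same strand. In EIF4A2, also on the + strand, HBI-61 lies at chr3:186786675-186786852 in intron 7, E3 at chr3:186787300-186787431 in intron 8 and ACA4 at chr3:186787612-186787749 in intron 9. The microRNA gene MIR1248 covers 103 bases of HBI-61 on the same strand, so a read there can come from either; miR-1248 is not analysed here.

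All 5 members start close to the 5′ splice site of their intron, 27 bases from it in ACA4, 29 in HBI-61, 34 in ACA48, 35 in E3 and 38 in U67. The C/D box snoRNAs of the same hosts, mgU6-77 in EIF4A1 and snR39B in EIF4A2, start at 118 and 99 bases. C/D box snoRNAs guide methylation of ribose, and mgU6-77 acts on the U6 spliceosomal RNA. The H/ACA box snoRNAs of 3 other translation factor genes start at 123 bases (ACA41 in EEF1B2), 607 bases (ACA19 in EIF3A) and 621 bases (ACA28 in EIF5). To the 3′ splice site the members left 53 bases in ACA4, 63 in E3, 73 in U67, 271 in ACA48 and 274 in HBI-61.

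**Figure D1:**
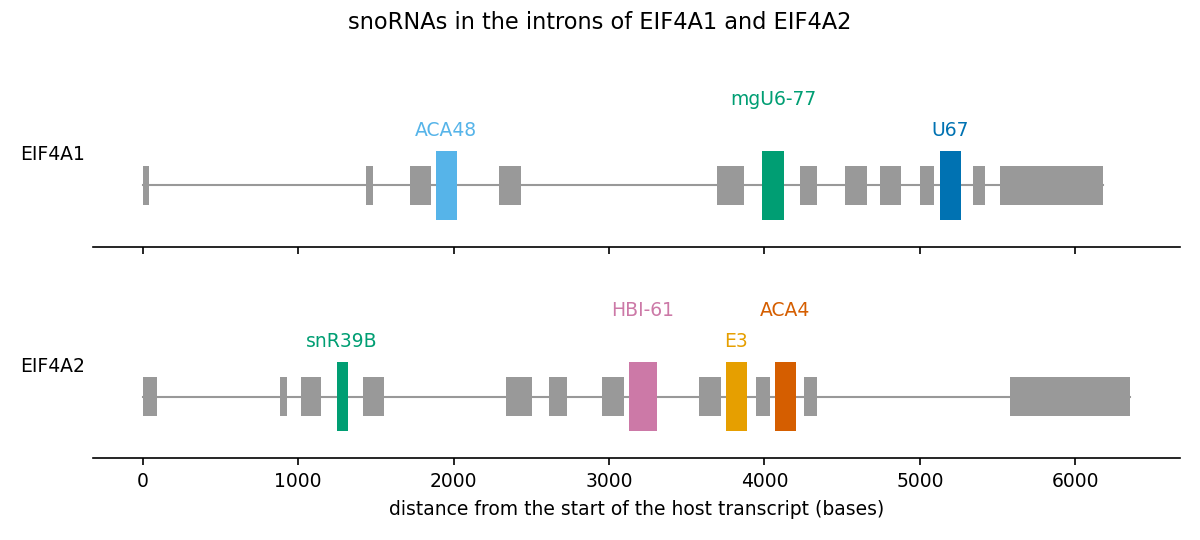
Exons (grey) and snoRNAs (coloured) of EIF4A1 and EIF4A2 along the host transcript, in bases from its start. The 5 members each begin 27 to 38 bases into their intron, and the C/D box snoRNAs mgU6-77 and snR39B begin 118 and 99 bases in.

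Each member has annotated relatives elsewhere in the genome. The closest to U67 shares 93.5% of aligned bases, SNORA48B shares 93.9% with ACA48, and the closest to E3, HBI-61 and ACA4 share 92.4%, 88.2% and 83.1%, among relatives aligned over at least 80% of the member. How reads that match several places were counted is not given in the sources used here, so some reads of a member may belong to a relative. Reads were 50 bp long, shorter than every member, so whole snoRNAs and fragments cannot be told apart.

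Levels are given as normalised reads, the deposited values, in which the reads of a library are divided by 1 size factor. Vesicle libraries held 1881080 to 3382605 assigned reads and cell libraries 1188388 to 1804089, and the replicates of a group correlated across features at Pearson's r of 0.981 to 0.994 on the log2 scale. Such a value is relative to the other small RNAs of the library, so fewer vesicles or cells and less RNA in each cannot be told apart. The ATG7 and ATG12 messenger RNAs are not analysed here, so the knockout labels were not checked against them. Of 8 microRNAs known from HEK293 lines, all 8 were present in every group, summing to 5616 to 5921 normalised reads in ATG7-/- vesicles, 5817 to 6074 in ATG12-/- vesicles and 2890 to 4302 in wild-type vesicles, against 2449 to 4090 over the cell libraries. Of 8 microRNAs known from blood, the 7 in the table summed to 195 to 286 in ATG7-/- vesicles, 276 to 331 in ATG12-/- vesicles and 133 to 172 in wild-type vesicles, against 33.0 to 90.1 over the cell libraries; miR-144-3p was at 0 in all ATG7-/- vesicle libraries. Both lists summed higher in the knockout vesicles than in wild-type vesicles without overlap, but not every microRNA did so. In the blood list miR-16-5p averaged 27.0 in ATG7-/- and 27.2 in ATG12-/- vesicles, against 45.6 in wild-type vesicles. It made up most of the blood sum in cells, averaging 62.3 in ATG7-/-, 51.1 in ATG12-/- and 47.0 in wild-type cells. By contrast miR-150-5p had 0 to 1 read in each cell library, against 20 to 76 reads in the vesicle libraries. The HEK293 sum was mostly miR-92a-3p and miR-25-3p, both higher in each knockout. There miR-7-5p averaged 17.1 in ATG7-/- and 20.5 in ATG12-/- vesicles, against 43.8 in wild-type vesicles. For miR-196b-5p the averages were 21.7 and 22.8, against 23.5. Against cells the HEK293 list was split as well. In wild type miR-196a-5p averaged 133 in vesicles and 515 in cells, and miR-196b-5p 23.5 and 71.7. The averages of miR-7-5p and miR-17-5p were also lower in wild-type vesicles than in wild-type cells. Those of miR-10a-5p, miR-10b-5p, miR-92a-3p and miR-25-3p were higher. The part of both lists in the results was not tested. Changes are on the scale of log2(normalised reads + 1) with their standard error (SE); a change is called when limma's p, adjusted by the Benjamini-Hochberg method over all features tested, is under 0.05.

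Set against wild-type cells, wild-type vesicles held more U67, less ACA4 and E3, and amounts of ACA48 and HBI-61 that did not pass the test. In EIF4A1 U67 was called and ACA48 was not, and in EIF4A2 ACA4 and E3 were called and HBI-61 was not. Of 905 features tested, 81.8% were called, 38.9% as higher and 42.9% as lower, and the groups did not overlap for 83.8%, so a call on a member is the common outcome here. With library totals in place of the deposited size factors, 19.4% of the calls were higher, against 47.6% as deposited, and the median change over all features shifted by -1.44.

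U67 had 6736, 4780 and 4569 normalised reads in wild-type vesicles, against 1035, 1140 and 1126 in wild-type cells. Every vesicle library exceeded every cell library. U67 was 4.80-fold higher in vesicles (log2 change 2.26, SE 0.20, limma adjusted p = 9.85e-10) and ranked 88 of 98 H/ACA box snoRNAs from the lowest change. The size of this change depends on the scaling. As a share of assigned reads the groups lay closer, at 0.1665% to 0.2132% in wild-type vesicles and 0.1012% to 0.1141% in wild-type cells. ACA48, from the same host, had 648, 796 and 805 normalised reads in wild-type vesicles, against 831, 887 and 894 in wild-type cells. The vesicle libraries lay just below the cell libraries without overlap, but the change of -0.22 (SE 0.16, limma adjusted p = 0.206) was not called. It was called with library totals, at -1.74, and with factors from microRNAs alone, at -0.57.

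ACA4 had 130, 105.1 and 91.9 normalised reads in wild-type vesicles, against 1584, 1680 and 1544 in wild-type cells. All vesicle libraries were far below all cell libraries, and ACA4 was 14.7-fold lower in vesicles (log2 change -3.88, SE 0.19, limma adjusted p = 2.13e-14), rank 8 of 98. E3 had 703, 640 and 632 normalised reads in wild-type vesicles, against 1998, 2168 and 1882 in wild-type cells. Its groups did not overlap either, and it was 3.06-fold lower in vesicles (log2 change -1.61, SE 0.16, limma adjusted p = 6.21e-09), rank 36 of 98. HBI-61 had 452, 390 and 414 normalised reads in wild-type vesicles, against 427, 454 and 474 in wild-type cells. These groups overlapped, and the change of -0.11 (95% interval -0.53 to 0.31, limma adjusted p = 0.624) was not called. With library totals HBI-61 was called lower, at -1.62, and with factors from microRNAs alone, at -0.46.

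**Figure D2:**
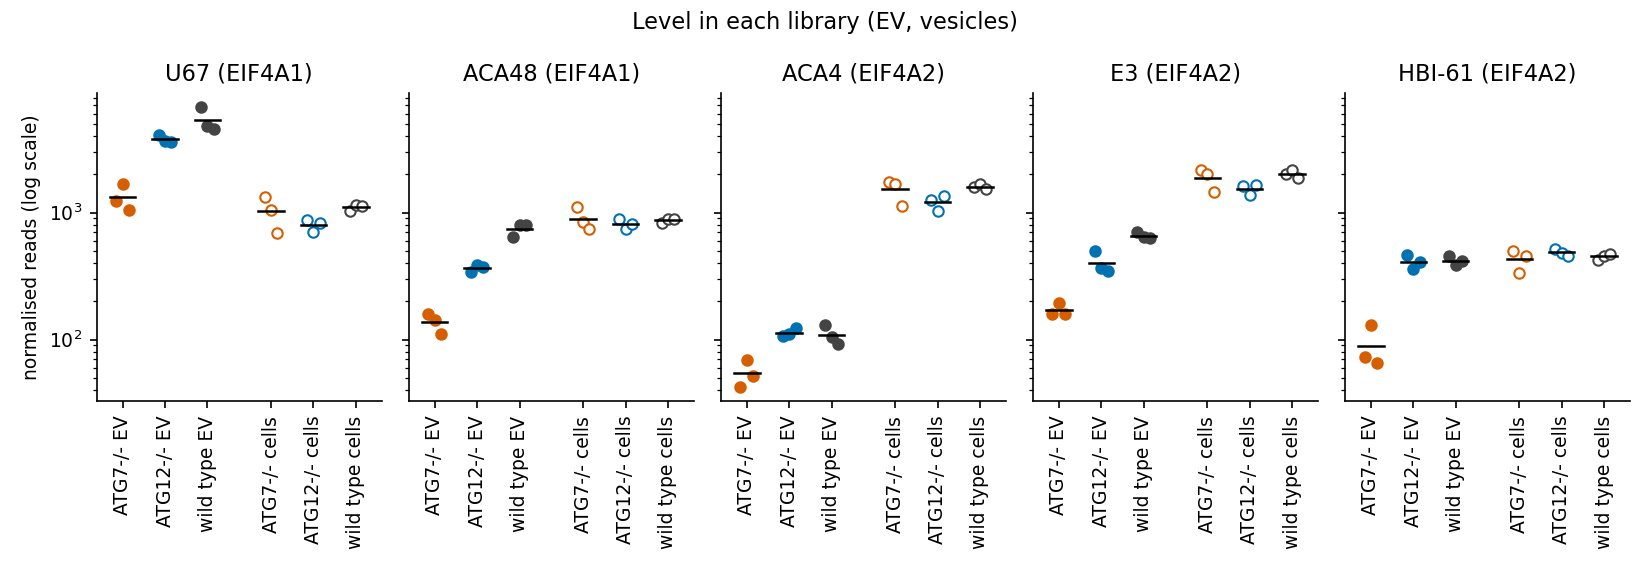
Normalised reads of each member in each library (points, log scale) with the group mean (line); filled points are vesicles (EV), open points are cells. In wild-type vesicles U67 stands at 4569 to 6736, against 1035 to 1140 in wild-type cells, while ACA4 stands at 91.9 to 130, against 1544 to 1680.

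In both knockouts U67 again had the highest change of the members and ACA4 the lowest, and each member had a lower change in ATG7-/- than in wild type, a difference tested after the cell comparisons. In ATG7-/- vesicles against ATG7-/- cells, where 82.8% of features were called, 42.8% as lower, and 84.9% did not overlap, U67 changed by 0.38 (SE 0.20, limma adjusted p = 0.0860), which was not called, and its groups overlapped. It was called higher with factors from microRNAs (0.43, adjusted p = 0.0413), without ATG7-/- vesicle replicate 3 (0.54, adjusted p = 0.0317) and without ATG7-/- cell replicate 1 (0.60, adjusted p = 0.0106). The other 4 members were called lower in ATG7-/- vesicles, with log2 changes of -2.69 for ACA48, -4.78 for ACA4, -3.44 for E3 and -2.29 for HBI-61. In ATG12-/- vesicles against ATG12-/- cells, where 80.3% were called, 39.2% as higher and 41.1% as lower, and 85% did not overlap, U67 was higher, at 2.24 (SE 0.20, limma adjusted p = 1.06e-09). ACA48, ACA4 and E3 were called lower, at -1.15, -3.39 and -1.95, and the change of HBI-61, -0.25 (95% interval -0.66 to 0.17), was not called. HBI-61 was called lower there with library totals (-2.34), trimmed-mean (TMM) factors (-0.46, adjusted p = 0.0355) and factors from microRNAs (-0.53, adjusted p = 0.0145). With library totals U67 was at -1.60 and called lower in ATG7-/- vesicles, and in ATG12-/- vesicles it was at 0.14 with no call; the medians of all features then moved by -1.91 and -2.07. U67 had the highest change of the members and ACA4 the lowest in all 3 genotypes under every alternative run. Most of these runs could hardly change that order. Another scaling moves every member by about the same amount, and other minimums or a replicate block leave the estimates as they are.

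**Figure D3:**
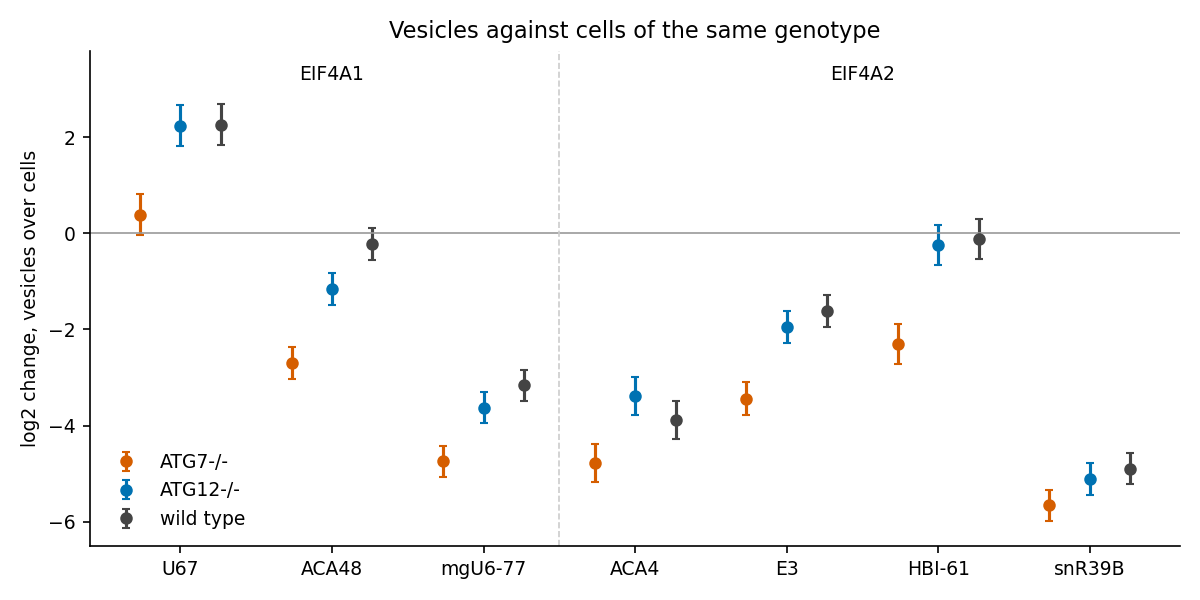
Log2 change of vesicles over cells of the same genotype, with 95% intervals, for the members and the C/D box snoRNAs of the same hosts. In each genotype U67 is the highest of the 7, at 0.38 in ATG7-/-, 2.24 in ATG12-/- and 2.26 in wild type, and snR39B the lowest, at -5.66, -5.11 and -4.90.

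The C/D box snoRNAs of both hosts were lower in wild-type vesicles as well, with changes below those of at least 4 of the 5 members. mgU6-77 had 166, 170 and 168 normalised reads in wild-type vesicles, against 1515, 1593 and 1446 in wild-type cells, a log2 change of -3.17 (SE 0.15). snR39B had 163, 123.1 and 134 normalised reads in wild-type vesicles, against 4547, 4122 and 3881 in wild-type cells, a log2 change of -4.90 (SE 0.16). Both were called with no overlap between groups. Over the 150 C/D box snoRNAs tested the median was -3.68, and over the 98 H/ACA box snoRNAs it was -1.04.

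Per 100 bases of snoRNA, U67 led wild-type vesicles at 3914 ± 872 normalised reads (SD, n = 3). Whether reads grow with the length of a snoRNA was not tested, so an order between genes is uncertain. In ATG12-/- vesicles, for example, HBI-61 averaged 411 normalised reads before this division, against 403 for E3. Per 100 bases they averaged 231 and 305 there. ACA48 at 555 ± 65.6 and E3 at 499 ± 29.3 came next and overlapped, followed by HBI-61 at 235 ± 17.7 and ACA4 at 79.0 ± 14.1 normalised reads per 100 bases. The ranges of HBI-61 and ACA4 did not meet their neighbours'. The cells had another order: in wild-type cells E3 led at 1528 ± 109 normalised reads per 100 bases, then ACA4 at 1161 ± 50.7, U67 at 803 ± 41.5, ACA48 at 645 ± 25.7 and HBI-61 at 254 ± 13.3, with no overlap between neighbours. In ATG7-/- vesicles U67 again led at 963 ± 232, and in ATG12-/- vesicles at 2764 ± 210 normalised reads per 100 bases, with ACA4 the lowest member in both at 39.3 ± 9.81 and 82.3 ± 6.98. In ATG7-/- vesicles the range of ACA4, 30.6 to 49.9, overlapped that of HBI-61, 36.5 to 73.5. Base for base, U67 had the highest mean of the members in vesicles of every genotype and ACA4 the lowest, whereas in cells HBI-61 had the lowest.

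As a share of all assigned reads, which uses no size factor, the 5 members together took 0.0467% ± 0.00804 in ATG7-/- vesicles, 0.137% ± 0.0184 in ATG12-/- vesicles and 0.250% ± 0.0213 in wild-type vesicles (SD, n = 3 each). The 3 vesicle groups did not overlap. Most of each vesicle sum was U67, which alone took 0.2132%, 0.1692% and 0.1665% in the wild-type vesicle libraries. In wild-type cells U67 took 0.1012%, 0.1141% and 0.1104%, and most of the sum came from the other members. In cells the share was 0.597% ± 0.0720 in ATG7-/-, 0.562% ± 0.0513 in ATG12-/- and 0.596% ± 0.0326 in wild type, and the groups overlapped.

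In ATG7-/- vesicles all 5 members were lower than in wild-type vesicles, by 2.01-fold to 5.45-fold. Of 850 features tested 62.5% were called and 28.9% were called lower, and 68% did not overlap between groups; 5 of 5 members were called lower and 5 of 5 did not overlap. Over the same features 53.7% of calls were higher, against 31.8% with library totals and 37.3% with factors from microRNAs, and those scalings moved the median by -0.36 and -0.24. The members' median log2 change was -2.03, that of all features 0.11 and that of the 92 H/ACA box snoRNAs -1.96, of which 88 were called lower and 0 higher. The members thus lay within the range of their class, which spreads on either side of them in the plot of H/ACA box snoRNAs by comparison.

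U67 had 1238, 1669 and 1050 normalised reads in ATG7-/- vesicles, against 6736, 4780 and 4569 in wild-type vesicles. Its groups were well apart, and the log2 change was -2.03 (SE 0.18, limma adjusted p = 5.2e-07), rank 42 of 92. ACA48 had 160, 144 and 110 normalised reads in ATG7-/- vesicles, against 648, 796 and 805 in wild-type vesicles. It changed by -2.45 (SE 0.16, limma adjusted p = 7.7e-08), the furthest of the 5 members, and ranked 27 of 92.

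ACA4 had 42.2, 68.9 and 51.7 normalised reads in ATG7-/- vesicles, from 32 to 59 reads, against 130, 105.1 and 91.9 in wild-type vesicles. The groups did not overlap, and the change of -1.01 (SE 0.21, limma adjusted p = 0.00082) was the smallest among the members, rank 80 of 92. Its 95% interval of -1.45 to -0.56 did not reach that of any other member, the nearest being E3 with -2.29 to -1.61. E3 had 158, 194 and 159 normalised reads in ATG7-/- vesicles, against 703, 640 and 632 in wild-type vesicles, with no overlap and a change of -1.95 (SE 0.16, limma adjusted p = 3.06e-07). HBI-61 had 72.5, 131 and 65.0 normalised reads in ATG7-/- vesicles, against 452, 390 and 414 in wild-type vesicles. The second ATG7-/- library was the highest of its group for U67, ACA4, E3 and HBI-61, and for HBI-61 it still lay below every wild-type library. HBI-61 changed by -2.28 (SE 0.22, limma adjusted p = 1.36e-06). The 5 calls were made under every scaling, tool, filter and left-out library tried.

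In ATG12-/- vesicles 3 members were lower than in wild-type vesicles, and ACA4 and HBI-61 did not pass the test. Of 850 features 43.6% were called, 21.1% lower, and 52.7% did not overlap; 3 of 5 members were called lower and the same number did not overlap. Of the calls 51.8% were higher, against 22.2% with library totals and 21.6% with factors from microRNAs, which moved the median by -0.35 and -0.31. The members' median was -0.48, that of all features 0.05 and that of the 92 H/ACA box snoRNAs -0.72, of which 52 were called lower and 7 higher.

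ACA48 had 338, 389 and 371 normalised reads in ATG12-/- vesicles, against 648, 796 and 805 in wild-type vesicles. It was 2.04-fold lower (log2 change -1.03, SE 0.16, limma adjusted p = 0.00022) and ranked 33 of 92. U67, its partner in EIF4A1, had 4117, 3657 and 3586 normalised reads in ATG12-/- vesicles, against 6736, 4780 and 4569 in wild-type vesicles. The groups did not overlap but came close, and the change was -0.48 (SE 0.18, limma adjusted p = 0.0416). That call ended with TMM factors (-0.48, limma adjusted p = 0.0595), and without wild-type vesicle replicate 1 the change was -0.31 (adjusted p = 0.116). It also ended without ATG12-/- vesicle replicate 1, 2 or 3, at -0.54, -0.46 and -0.44 (limma adjusted p = 0.0558, 0.1098 and 0.1203).

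E3 had 495, 369 and 345 normalised reads in ATG12-/- vesicles, against 703, 640 and 632 in wild-type vesicles. Its groups did not overlap, and it changed by -0.72 (SE 0.16, limma adjusted p = 0.0022). ACA4 had 106, 110 and 124 normalised reads in ATG12-/- vesicles, against 130, 105.1 and 91.9 in wild-type vesicles, and the groups overlapped. Its change was 0.07 (95% interval -0.38 to 0.52, limma adjusted p = 0.802), and its direction turned with library totals (-0.28) and factors from microRNAs (-0.24). HBI-61 had 462, 361 and 409 normalised reads in ATG12-/- vesicles, against 452, 390 and 414 in wild-type vesicles. These also overlapped, with a change of -0.03 (95% interval -0.51 to 0.45, limma adjusted p = 0.906). Whether E3 differed from ACA4 and HBI-61, its neighbours in EIF4A2, is given by the ratios within the host.

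**Figure D4:**
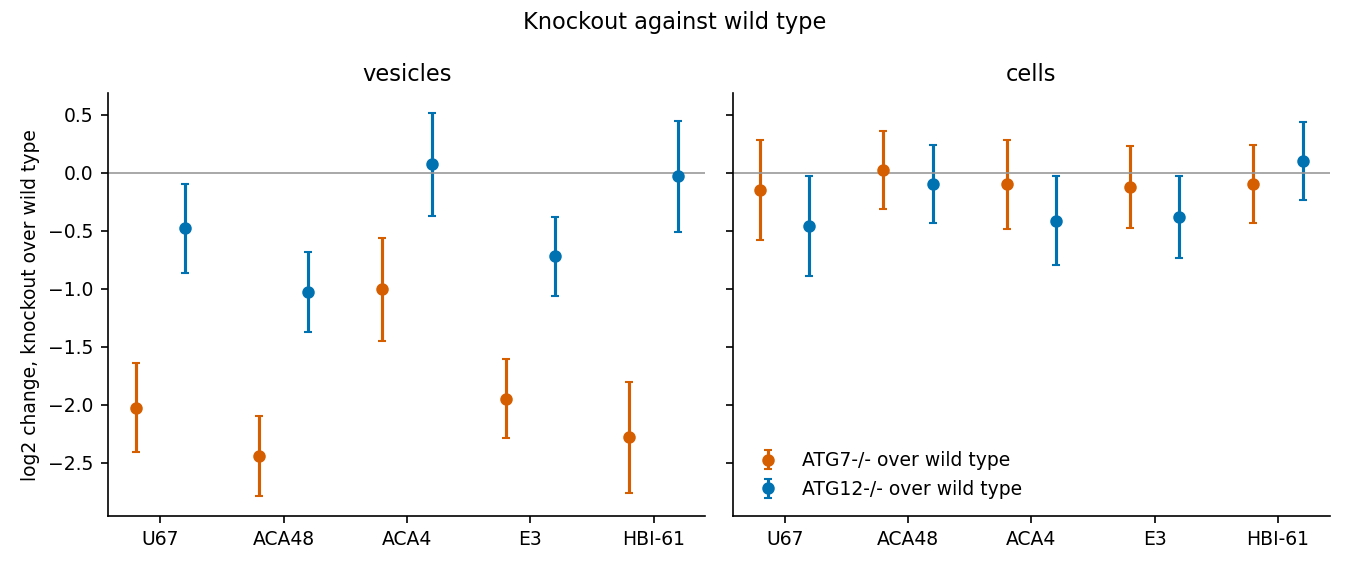
Log2 change of knockout over wild type for each member in vesicles (left) and cells (right), with 95% intervals. In vesicles the ATG7-/- changes run from -2.45 to -1.01 and the ATG12-/- changes from -1.03 to 0.07, while in cells they run from -0.46 to 0.10.

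ATG12-/- vesicles held more of every member than ATG7-/- vesicles did, and HBI-61 stood furthest. Of 850 features 49.9% were called, 26.6% higher, and 58.7% did not overlap; 5 of 5 members were called higher with no overlap. Both knockouts were also set against the same wild-type libraries above. HBI-61 had 462, 361 and 409 normalised reads in ATG12-/- vesicles, against 72.5, 131 and 65.0 in ATG7-/- vesicles, a 4.75-fold difference (log2 change 2.25, SE 0.22, limma adjusted p = 1.17e-05) that ranked 90 of 92 H/ACA box snoRNAs. U67 changed by 1.54 (SE 0.18, limma adjusted p = 2.15e-05), ACA48 by 1.42 (SE 0.16, 2.06e-05), E3 by 1.22 (SE 0.16, 4.46e-05) and ACA4 by 1.08 (SE 0.21, 0.000896). The members' median was 1.42, that of all features 0.00 and that of the H/ACA box class 1.14, of which 81 of 92 were called higher and 0 lower. Of the C/D box snoRNAs in the same hosts, mgU6-77 was called higher, at 0.84 (SE 0.17), and snR39B at 0.28 (SE 0.19, limma adjusted p = 0.236) was not.

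**Figure D5:**
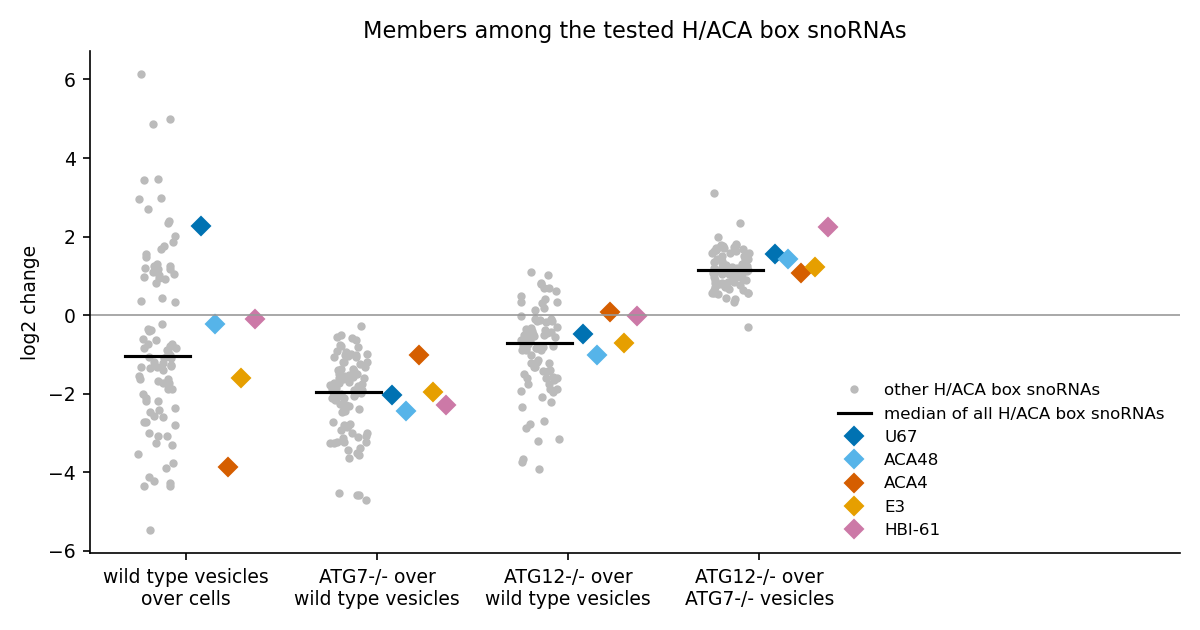
Log2 changes of the members (diamonds) beside all other tested H/ACA box snoRNAs (grey points) and the class median (line) in 4 comparisons. The members spread from -3.88 to 2.26 in wild-type vesicles over cells, and HBI-61, at 2.25, sits near the top of the class in ATG12-/- over ATG7-/- vesicles.

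In cells limma called 0 of 5 members in either knockout, and so did edgeR and DESeq2 on the recovered reads. At an unadjusted p under 0.05 limma counted 0 members in ATG7-/- cells and 3 in ATG12-/- cells. The share of all 853 features at that threshold was not counted, so whether 3 of 5 is unusual there was not tested. In ATG7-/- cells, where 16.8% of 853 features were called and 35.2% did not overlap, all 5 members overlapped with wild-type cells and their changes lay between -0.15 (U67) and 0.02 (ACA48). The widest 95% interval, that of U67, ran from -0.58 to 0.28. E3, for example, had 2159, 2023 and 1448 normalised reads in ATG7-/- cells, against 1998, 2168 and 1882 in wild-type cells. The third ATG7-/- library was the lowest of its group for U67, ACA48, ACA4 and E3. With factors from microRNAs, which moved the median of all features by -0.51, all 5 were called lower, from -0.66 (U67) to -0.49 (ACA48), and 3.73% of calls were higher, against 50.3% as deposited; with library totals the share was 62.2%.

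In ATG12-/- cells, where 25.7% were called, and 48.5% did not overlap, U67, ACA4 and E3 lay below wild-type cells without overlap but were not called. U67 had 876, 701 and 833 normalised reads in ATG12-/- cells, against 1035, 1140 and 1126 in wild-type cells (log2 change -0.46, SE 0.20, limma adjusted p = 0.107). ACA4 had 1255, 1023 and 1349 normalised reads in ATG12-/- cells, against 1584, 1680 and 1544 in wild-type cells (-0.42, SE 0.18, limma adjusted p = 0.101). E3 had 1613, 1377 and 1656 normalised reads in ATG12-/- cells, against 1998, 2168 and 1882 in wild-type cells (-0.38, SE 0.16, limma adjusted p = 0.101). ACA48 and HBI-61 overlapped, at -0.10 and 0.10. The 3 lower members were called when only ATG12-/- and wild-type cells were fitted (limma adjusted p = 0.00829 for U67, 0.0149 for ACA4 and 0.0151 for E3), with factors from microRNAs, and without ATG7-/- cell replicate 3; without ATG7-/- cell replicate 1 U67 was called. Of all calls 29.2% were higher as deposited, against 62.7% with library totals, 52.2% with TMM factors and 6.50% with factors from microRNAs.

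The knockout change in vesicles was then tested against that in cells. For ATG7-/-, where 55% of 905 features were called and 28.7% lower, the vesicle change was lower than the cell change for 5 of 5 members. Most of their class did the same: of 98 H/ACA box snoRNAs 87 were called lower and 0 higher. The median was -1.88 for the class and for the members. The difference was -2.47 for ACA48, -2.18 for HBI-61, -1.88 for U67, -1.83 for E3 and -0.90 for ACA4 on the log2 scale, with limma adjusted p from 2.51e-08 (ACA48) to 0.00732 (ACA4). The call on ACA4 ended with factors from microRNAs, at -0.51 (adjusted p = 0.114). For ATG12-/- 26.4% were called and 12% lower. Of the 98 H/ACA box snoRNAs 35 were called lower and 10 higher, with a median of -0.48, against -0.14 for the members. ACA48 alone of the members was called, at -0.93 (SE 0.23, limma adjusted p = 0.0049). The other differences were -0.34 for E3, -0.14 for HBI-61, -0.02 for U67 and 0.48 for ACA4; with library totals E3, at -0.92, and HBI-61, at -0.72, were called as well. The share of higher calls for ATG7-/- was 47.8% as deposited and 17.9%, 39.4% and 63.7% with library totals, TMM factors and factors from microRNAs. For ATG12-/- it was 54.4% as deposited, against 6.94% with library totals and 32.2% with TMM factors.

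Ratios between snoRNAs of 1 host do not depend on any scaling of the libraries. A two-sided exact permutation test of 3 libraries against 3 cannot go below p = 0.1, so none of the 21 ratio comparisons could pass 0.05. U67 over ACA48 was 5.67 to 12.2 in the 9 vesicle libraries, against 0.937 to 1.29 in the 9 cell libraries. The 2 RNAs, 137 and 135 bases long, were thus near parity in cells and U67 was in excess in every vesicle library of every genotype (exact p = 0.1 in each). In ATG7-/- vesicles the ratio was 7.76, 11.6 and 9.54, in ATG12-/- vesicles 12.2, 9.41 and 9.66 and in wild-type vesicles 10.4, 6.002 and 5.67. The knockout and wild-type vesicles overlapped (exact p = 0.3 for both). In cells U67 over ACA48 lay below wild type without overlap in both knockouts, by a log2 difference of -0.17 in ATG7-/- and -0.36 in ATG12-/- (exact p = 0.1 each). In ATG7-/- cells the ratio was 1.216, 1.24 and 0.937, against 1.246, 1.286 and 1.259 in wild-type cells, so these groups nearly met. With 1 library left out the ATG7-/- difference ran from -0.24 to -0.04.

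ACA4 over E3 was 0.267, 0.355 and 0.325 in ATG7-/- vesicles, 0.215, 0.299 and 0.361 in ATG12-/- vesicles and 0.185, 0.164 and 0.146 in wild-type vesicles. Both knockouts lay above wild type without overlap, by 0.94 and 0.79 on the log2 scale (exact p = 0.1 each), so E3 was lower relative to ACA4 in every knockout vesicle library. In cells ACA4 over E3 kept to 0.743 to 0.836 in all 9 libraries, and the knockouts overlapped wild type. HBI-61 over E3 was 0.458, 0.675 and 0.408 in ATG7-/- vesicles, 0.933, 0.978 and 1.19 in ATG12-/- vesicles and 0.644, 0.609 and 0.656 in wild-type vesicles. ATG12-/- vesicles stood above wild-type vesicles by 0.69 on the log2 scale without overlap (exact p = 0.1), and ATG7-/- and wild-type vesicles overlapped (exact p = 0.4). In ATG12-/- cells HBI-61 over E3 was also above wild-type cells, by 0.49 (exact p = 0.1).

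Across all 18 libraries and 905 tested features, the features whose log2 levels followed each member most closely were mostly other snoRNAs. Only HBI-61 also had other kinds of RNA among them. For U67 they were HBII-166 (Pearson's r 0.978), ACA10 (0.973) and ACA38 (0.964), and its r with ACA48 was -0.10. For ACA48 they were ACA25, ACA22 and ACA36, each at an r of 0.97. For ACA4 they were ACA3-2 (0.999), ACA43 and U24, and for E3 they were U68 (0.996), HBI-6 and HBII-202. For HBI-61 they were the small Cajal body RNA ACA26 (0.942), miR-664b-3p (0.901) and U70 (0.892). Libraries of a group share genotype and compartment, so these values describe 6 groups more than 18 independent points. No member had another member among its closest 3, and r between members ran from -0.64 (U67 and ACA4) to 0.950 (ACA4 and E3).

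The C/D box snoRNAs of the same hosts were lower in the knockout vesicles as well, a common outcome in their class. Of 140 C/D box snoRNAs 117 were called lower and 2 higher in ATG7-/- vesicles, with a median of -1.44. In ATG12-/- vesicles 66 were called lower and 9 higher, with a median of -0.57. mgU6-77 had 54.1, 53.7 and 42.4 normalised reads in ATG7-/- vesicles and 101, 75.6 and 96.2 in ATG12-/- vesicles, against 166, 170 and 168 in wild-type vesicles. It changed by -1.74 (SE 0.17, limma adjusted p = 1.81e-06) in ATG7-/- and by -0.89 (SE 0.17, limma adjusted p = 0.00106) in ATG12-/- vesicles. snR39B had 88.3, 80.6 and 61.0 normalised reads in ATG7-/- vesicles and 88.2, 87.5 and 101.8 in ATG12-/- vesicles, against 163, 123.1 and 134 in wild-type vesicles. It changed by -0.87 (SE 0.19, limma adjusted p = 0.00111) in ATG7-/- vesicles and by -0.59 (SE 0.19, limma adjusted p = 0.0201) in ATG12-/- vesicles. Without ATG12-/- vesicle replicate 1 or 2, or wild-type vesicle replicate 1, snR39B in ATG12-/- vesicles lost its call (limma adjusted p = 0.0562, 0.0667 and 0.0591). In cells limma called neither in either knockout with the deposited size factors, but with factors from microRNAs both were called lower in both knockouts. In ATG12-/- cells mgU6-77, at -0.43 (SE 0.15, limma adjusted p = 0.0534), was also called by DESeq2 (adjusted p = 0.0400), with a minimum of 50, with only the groups compared and without ATG7-/- cell replicate 1, 2 or 3. There snR39B, at -0.37 (SE 0.15, limma adjusted p = 0.0788), was also called with only the groups compared and without ATG7-/- cell replicate 3.

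Of 7 snoRNAs in other translation factor genes, 7 were called lower in ATG7-/- vesicles than in wild-type vesicles and 5 in ATG12-/- vesicles. Over all 850 features 28.9% and 21.1% were called lower, and of the 92 H/ACA box snoRNAs 88 and 52 were. The medians of the 7 were -2.19 and -1.08, against -2.03 and -0.48 for the members. The 7 mix H/ACA box and C/D box snoRNAs, whereas the members are all of the H/ACA box class. ACA28, in EIF5, whose product helps the ribosome settle on the start codon, had 24.3 ± 5.36 normalised reads in ATG7-/- vesicles and 36.7 ± 1.61 in ATG12-/- vesicles, against 580 ± 124 in wild-type vesicles (SD, n = 3 each). Its changes of -4.52 (SE 0.21) and -3.92 (SE 0.21) lay beyond those of all 5 members in both knockouts. In ATG12-/- vesicles ACA19 of EIF3A, at -0.50 (SE 0.19, limma adjusted p = 0.0502, but called by edgeR and DESeq2 on the recovered reads, with adjusted p = 0.0301 and 0.0159), and U97 of EIF4G2, at 0.47 (SE 0.23, limma adjusted p = 0.123), were not called, and U51 of EEF1B2 was at -2.09 (SE 0.30). In ATG12-/- against ATG7-/- vesicles 5 of the 7 were called higher, with a median of 0.98, against 1.42 for the members; the call on ACA28, at 0.60 (limma adjusted p = 0.0326), ended with edgeR and DESeq2 (adjusted p = 0.1002 and 0.1144). Over all features 26.6% were called higher in ATG12-/- against ATG7-/- vesicles. In cells 0 of the 7 were called in ATG7-/- and 1 in ATG12-/-, U97 at -0.52, where 16.8% and 25.7% of all features were called.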

How the data were processed

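Small RNA was measured in 18 libraries. Per the labels' protocols, SMARTer libraries took 12 PCR cycles and were read as single 50 bp reads. The submitters' processing notes name DESeq2, bedtools, Bowtie2 2.3 and cutadapt 2.3, with GRCh38 (hg38) as the build; the order of steps, the annotation and the treatment of multiply matching reads are not given in the sources used here. The deposited unit is a scaled signal: in each library 100.0% of values were whole multiples of 1 step (tolerance 1e-06), the value of 1 read, and recomputed median-of-ratios factors had a ratio of 1.0 to the steps.

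Features reaching 10 normalised reads in at least 3 fitted libraries were tested with limma 3.58.1 (R 4.3.3), with trend, on log2(normalised reads + 1), two-sided, over 9 vesicle, 9 cell or all 18 libraries (850, 853 and 905 features). Fold changes understate the change of low features. All 5 members passed. Alternatives were other scalings, minimums and pseudocounts, a replicate block, leaving out each library, and edgeR 4.0.16 and DESeq2 1.42.0 on the recovered reads. The procedure was tested on simulated data. Members and lists were chosen with earlier results of these data known; the features named are the members, their hosts' C/D box snoRNAs, 7 snoRNAs of other translation factor genes and the 3 closest by Pearson's r. Stems were predicted with RNAfold 2.7.2 and relatives found with blastn 2.17.0+.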

Additional observations from a re-analysis of the deposited data

Results flagged for a closer look

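For each of these results the knockout change in vesicles differed from the knockout change in cells by limma's test of that difference. In ATG7-/- the difference, vesicle change minus cell change on the log2 scale, was -1.88 for U67, -2.47 for ACA48, -0.90 for ACA4, -1.83 for E3 and -2.18 for HBI-61. In ATG12-/- it was -0.93 for ACA48. Group changes behind them were -2.03 in vesicles and -0.15 in cells for U67, -2.45 and 0.02 for ACA48, -1.01 and -0.10 for ACA4, -1.95 and -0.12 for E3, and -2.28 and -0.10 for HBI-61 in ATG7-/-. For ACA48 in ATG12-/- they were -1.03 in vesicles and -0.10 in cells. Of all features tested, 55% were called for this difference in ATG7-/- and 26.4% in ATG12-/-. Of 98 H/ACA box snoRNAs, 87 were called lower and 0 higher in ATG7-/-, and 35 lower and 10 higher in ATG12-/-.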

How the results depend on the processing

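The 5 calls in ATG7-/- against wild-type vesicles, and the 5 in ATG12-/- against ATG7-/- vesicles, were made under every alternative run. With factors from microRNAs, 536 features and 5 members were called in ATG7-/- cells, against 143 and 0 as reported, 3 members were called in ATG12-/- cells, against 0, and 5 in wild-type vesicles over cells, against 3. With library totals 5 members were called in wild-type vesicles over cells and 3 in the ATG12-/- difference between vesicles and cells, against 1. With only the groups compared, 3 members were called in ATG12-/- cells. Leaving out 1 library at a time gave 74 to 158 features called in ATG7-/- cells, fewest without each wild-type cell replicate, and 96 to 279 in ATG12-/- cells, against 219 as reported; members called in ATG12-/- cells ranged from 0 to 3.

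Signs turned as follows. ACA4 in ATG12-/- against wild-type vesicles was -0.28 with library totals, -0.24 with factors from microRNAs and -0.045 to 0.20 when 1 library was left out, and HBI-61 there was -0.12 to 0.056 likewise. In ATG7-/- cells ACA48 was -0.49 with factors from microRNAs; with 1 library left out ACA48 was -0.14 to 0.15, HBI-61 -0.22 to 0.073, U67 -0.36 to 0.11, ACA4 -0.22 to 0.10 and E3 -0.23 to 0.054. In ATG12-/- cells ACA48 was 0.13 with library totals and 0.050 with TMM factors, and HBI-61 was -0.12 with factors from microRNAs. U67 in ATG7-/- vesicles over cells was -1.60 with library totals. In the ATG12-/- difference between vesicles and cells ACA4 was -0.095 with library totals, and U67 was 0.036 with factors from microRNAs and -0.13 to 0.15 with 1 library left out. The cause was not tested.

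On the recovered reads edgeR called 536, 387 and 423 features and DESeq2 529, 382 and 413 in the vesicle comparisons of ATG7-/- with wild type, ATG12-/- with wild type and ATG12-/- with ATG7-/-, with the same number of members as limma in every comparison. Same-numbered libraries showed little shared deviation (r -0.225 to 0.198 over 45 pairs, 9 over 0.1), and the main test used no pairing. Pairs with different numbers were not compared, so whether the numbers pair the libraries was not settled. The replicate block left 5, 3 and 5 members called in the vesicle comparisons and 0 in both cell comparisons, and 123 features in ATG7-/- cells; it changed no call on a member, and, in the 3 vesicle comparisons, among the other snoRNAs of these and other translation factor genes it ended that of ACA28 in ATG12-/- against ATG7-/- vesicles (limma adjusted p = 0.0580, against 0.0326). Among the 5 members depth limits ACA4 most, with 32 reads in its lowest vesicle library. Intervals cover the spread between libraries, and 3 per group limit what can be called.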
